A study of Homo sapiens with 12 samples.

Results

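The smooth muscle contractile genes are the genes of the force-generating apparatus of smooth muscle, and they are the lineage markers used to recognise uterine leiomyosarcoma, a malignant tumour of the uterine muscle wall. The list holds 10 genes, chosen by name: ACTA2, TAGLN, CNN1, MYH11, ACTG2, DES, CALD1, SMTN, MYLK and MYL9. Of these, 9 have values among 22784 gene symbols, and MYH11, the smooth muscle myosin heavy chain, is not analysed here. Tests covered the 14839 genes that reached a minimum of 10 normalized counts in 3 or more libraries, 8 of the list among them. ACTG2, the gamma actin of smooth muscle, had a row but fell below that minimum.

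The cells were SK-UT-1, an established human uterine leiomyosarcoma line, so every library comes from the same line. They were exposed for 48 h to the vehicle (VEH in the labels, given as DMSO in the methods and called DMSO control below), to JQ1 at 5 µM or to I-BET 762, also at 5 µM. Both compounds are BET inhibitors, which occupy the pocket that BET proteins use to bind acetylated lysine on chromatin. The labels give 4 libraries per group, and values are analysed here for DMSO replicates 13 to 15, JQ1 replicates 17 to 20 and I-BET 762 replicates 21 to 23. The labels do not say that replicates came from separate cultures, so p-values measure the spread between these libraries, which may be technical. Reads on genes ranged from 35564586 to 39658989 per library, and a count of 0 allows up to 3 reads, or 2.73 to 3.30 normalized counts, for counting error only.

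In a smooth muscle cell, actin filaments slide past myosin filaments when the regulatory light chain, encoded by MYL9, is phosphorylated by myosin light chain kinase, the product of MYLK once calcium has risen in the cell. Caldesmon, calponin, transgelin and smoothelin bind actin filaments and regulate or stabilise them, and desmin filaments join the dense bodies. Many of these genes carry CArG boxes, the DNA element bound by serum response factor (SRF) together with its coactivators myocardin, MRTFA and MRTFB.

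Most of the list was lower in treated cells. With JQ1, 7 of the 8 tested genes were called lower than in the DMSO control and 0 were called higher, where called means an adjusted p-value under 0.05 by limma and a fold change over 1.5. Over all tested genes, 22.8% were called lower and 13.3% higher with JQ1. With I-BET 762, 6 were called lower and 0 higher, beside 17.9% and 8.96% of all tested genes. The 6 genes lower with both inhibitors were ACTA2, TAGLN, CNN1, DES, CALD1 and MYL9, and MYLK was called with JQ1. SMTN was not called with either compound, and it was the only tested member higher at an unadjusted p under 0.05 by limma, while limma-voom called 0 higher as well. The median log2 fold change of the 8 genes was -1.46 with JQ1 and -1.17 with I-BET 762, and the median over all tested genes was 0.0076 and -0.00063. The comparisons with each inhibitor share the 3 DMSO libraries. All 8 tested genes also met the expression minimum in the 7 treated libraries alone, whereas in the 4 JQ1 libraries alone CNN1 and DES did not and the other 6 did. RNA was measured in bulk, so fewer cells expressing a gene and less RNA per cell cannot be told apart. Values are given per gene symbol, so different transcripts of the same gene cannot be told apart either.

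Promoter sequences were available for 6 of the 10 genes, as 13 windows of 300 bases that run from 250 bases before a RefSeq transcript start to 50 bases after it, on GRCh38.p14. TAGLN, DES, MYL9 and MYH11 had no window. The windows below are shown because they hold CArG boxes or belong to genes whose expression is compared in what follows, and they are written 5′ to 3′ on the gene's strand with CArG boxes in capitals. The ACTA2 window lies at chr10:88952724-88953023 on the minus strand, and its capitals mark boxes that have 1 G or C among the core bases.
ACTA2: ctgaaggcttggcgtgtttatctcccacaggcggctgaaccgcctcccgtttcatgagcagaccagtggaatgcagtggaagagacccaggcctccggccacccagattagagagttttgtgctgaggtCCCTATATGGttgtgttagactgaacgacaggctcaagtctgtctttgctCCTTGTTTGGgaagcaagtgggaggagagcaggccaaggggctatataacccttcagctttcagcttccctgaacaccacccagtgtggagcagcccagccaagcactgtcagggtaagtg
The ACTG2 window, at chr2:73892758-73893057 on the plus strand, holds 2 boxes with a core of A and T alone.
ACTG2: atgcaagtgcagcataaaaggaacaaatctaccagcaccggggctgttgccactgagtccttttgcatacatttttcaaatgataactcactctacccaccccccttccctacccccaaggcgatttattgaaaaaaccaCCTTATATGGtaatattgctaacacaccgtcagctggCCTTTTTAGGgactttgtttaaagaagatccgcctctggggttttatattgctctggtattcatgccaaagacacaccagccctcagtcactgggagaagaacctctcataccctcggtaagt
The MYLK window, at chr3:123620499-123620798 on the minus strand, belongs to a start inside the gene, 263784 bases downstream of the start of its main transcript, from which short transcripts of the 3′ part of the gene arise.
MYLK: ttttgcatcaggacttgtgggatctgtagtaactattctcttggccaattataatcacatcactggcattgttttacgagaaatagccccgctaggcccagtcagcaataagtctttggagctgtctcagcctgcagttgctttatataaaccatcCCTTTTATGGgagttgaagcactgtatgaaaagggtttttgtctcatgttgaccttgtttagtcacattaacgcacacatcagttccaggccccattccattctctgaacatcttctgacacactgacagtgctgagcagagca
The SMTN window shown, at chr22:31084746-31085045 on the plus strand, is the last of 4 and lies 3678 bases downstream of the main start.
SMTN: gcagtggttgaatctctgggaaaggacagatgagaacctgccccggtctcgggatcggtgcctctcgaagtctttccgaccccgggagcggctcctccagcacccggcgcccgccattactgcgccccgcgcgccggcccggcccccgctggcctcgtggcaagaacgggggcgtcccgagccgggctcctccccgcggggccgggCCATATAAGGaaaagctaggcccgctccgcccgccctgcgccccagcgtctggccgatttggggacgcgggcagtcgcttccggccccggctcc
The CNN1 window, at chr19:11538601-11538900 on the plus strand, holds no CArG box under either definition and is shown for contrast.
CNN1: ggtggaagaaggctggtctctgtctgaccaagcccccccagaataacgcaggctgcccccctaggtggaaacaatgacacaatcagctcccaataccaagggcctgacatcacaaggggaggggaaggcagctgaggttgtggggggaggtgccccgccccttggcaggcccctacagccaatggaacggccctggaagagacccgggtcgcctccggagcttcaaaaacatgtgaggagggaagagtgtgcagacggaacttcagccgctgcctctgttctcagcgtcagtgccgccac
A CArG box with an A and T core, on either strand, was found in 3 of the 13 windows and in 1.29% of 35116 promoter windows of the same length. In ACTG2 the boxes ran from -110 to -101 and from -73 to -64 relative to the start, in SMTN from -44 to -35 and in MYLK from -94 to -85. With 1 G or C allowed in the core, a definition chosen after the data were seen, 5 windows held a box, against 8.13% of all promoters. The added windows were that of ACTA2 (-121 to -112 and -71 to -62) and 1 of the 4 of CALD1 (-26 to -17). The motif CATTCC, the MCAT element bound by TEAD factors, was present in 5 windows and in 14.0% of all promoters. The E box CANNTG was present in 7 windows and in 68.7% of all promoters, and TATAAA in 3 windows and 11.5%. The definitions of the CArG box overlap, since each box with an A and T core also meets the wider definition. A match to letters shows no binding, and no match says only that the letters are not in this window.

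**Figure D1:**
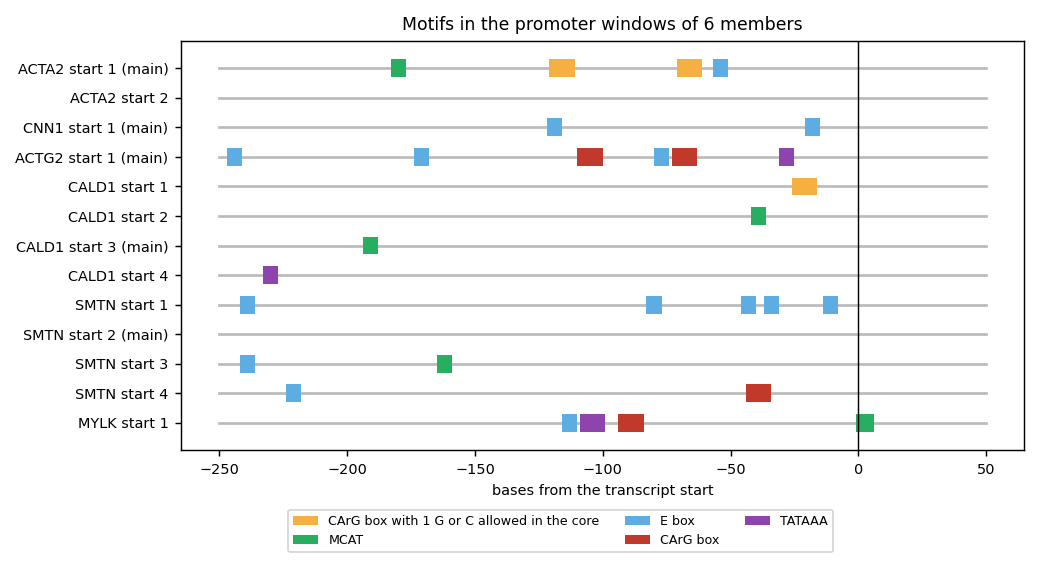
Positions of the searched motifs in the 13 promoter windows of 6 genes, with bases from the transcript start on the horizontal axis and one line per window. Dark red blocks mark CArG boxes with an A and T core, in 3 windows, and orange blocks mark those with 1 G or C in the core.

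ACTA2 encodes the alpha actin of vascular and uterine smooth muscle (ENSG00000107796.13, chr10:88935074-88991339, minus strand, GENCODE V44 on GRCh38). Its normalized counts were 6899, 7326 and 6988 in the DMSO control libraries, 2684, 3478, 2876 and 3263 with JQ1, and 3344, 3409.7 and 3297 with I-BET 762. Every treated library lay below every DMSO library, and the ranges of the inhibitors overlapped. The mean of 7071 ± 225 (SD, n = 3) fell to 3075 ± 361 with JQ1 (n = 4), a log2 fold change of -1.21 (SE 0.07, adjusted p = 3.46e-10, limma). With I-BET 762 the mean was 3350.0 ± 56.7 (n = 3), a log2 fold change of -1.08 (SE 0.08, adjusted p = 7.5e-09, limma). ACTG2 (ENSG00000163017.14, chr2:73892314-73919865, plus strand) had 2, 1 and 2 reads in the DMSO libraries, 0, 0, 1 and 1 with JQ1 and 0 in each I-BET 762 library. All these counts lie at or under the limit of 3 reads, so ACTG2 was not distinguishable from 0 at this depth and no fold change is given.

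MYL9, the regulatory light chain of smooth muscle myosin (ENSG00000101335.10, chr20:36541497-36551447, plus strand), had normalized counts of 2496, 2517 and 2584 in the DMSO control. They were 677, 807, 812 and 813 with JQ1, and 1081, 1087 and 980.5 with I-BET 762. The groups did not overlap, and the JQ1 libraries were the lowest. MYL9 fell by 1.71 on the log2 scale with JQ1 (SE 0.07, adjusted p = 4.85e-12, limma) and by 1.27 with I-BET 762 (SE 0.07, adjusted p = 9.07e-10, limma), that is to 30.7% and 41.4% of the DMSO mean of 2532 ± 45.7 (SD, n = 3).

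MYLK encodes the kinase that phosphorylates this light chain (ENSG00000065534.20, chr3:123610049-123884332, minus strand). Its normalized counts were 422, 382 and 411 in the DMSO control, 209.9, 193, 227 and 249.5 with JQ1, and 371, 354 and 389.8 with I-BET 762. The JQ1 libraries lay below all others, whereas the I-BET 762 range overlapped that of the DMSO control. With JQ1 the mean fell from 405 ± 20.9 (SD, n = 3) to 219.8 ± 24.3 (n = 4), a log2 fold change of -0.88 (SE 0.09, adjusted p = 4.55e-07, limma). With I-BET 762 the mean was 372 ± 18.0 (n = 3), and the log2 difference of -0.12 was not past the threshold (95% interval -0.34 to 0.09, adjusted p = 0.305, limma).

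CALD1 encodes caldesmon, which blocks the binding of myosin to actin (ENSG00000122786.20, chr7:134744252-134970729, plus strand). The libraries of the DMSO control had normalized counts of 9017, 9561 and 9738, against 5126, 5006, 4944 and 4933 with JQ1 and 5637, 6015 and 6099 with I-BET 762. The 3 groups did not overlap. CALD1 fell by 0.92 on the log2 scale with JQ1 (SE 0.05, adjusted p = 5.07e-11, limma) and by 0.67 with I-BET 762 (SE 0.05, adjusted p = 1.01e-08, limma). The latter was the smallest of the 6 called changes with I-BET 762, and at a threshold of 2-fold CALD1 was called with neither compound.

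TAGLN encodes transgelin, an early and abundant actin-binding marker of smooth muscle (ENSG00000149591.17, chr11:117199370-117207464, plus strand). Its normalized counts were 1579.6, 1651 and 1565 in the DMSO control, 108, 126, 143 and 126 with JQ1 and 165, 143 and 161 with I-BET 762. The 3 groups did not overlap. Of the DMSO mean of 1599 ± 46.0 (SD, n = 3), 7.86% remained with JQ1 and 9.80% with I-BET 762. The log2 fold change was -3.67 with JQ1 (SE 0.10, adjusted p = 5.73e-14, limma) and -3.34 with I-BET 762 (SE 0.11, adjusted p = 1.72e-12, limma).

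CNN1, calponin 1, inhibits actin-activated myosin ATPase and marks differentiated smooth muscle (ENSG00000130176.8, chr19:11538767-11550323, plus strand). The libraries gave normalized counts of 84.3, 110.0 and 91.9 in the DMSO control, 6.59, 6.53, 7.0 and 8.11 with JQ1, and 21.6, 11.03 and 10.8 with I-BET 762. These stand on 87 to 119 reads in the DMSO libraries, 6 to 8 with JQ1 and 11 to 22 with I-BET 762. The groups did not overlap, and I-BET 762 replicate 21 was the highest treated library. CNN1 fell by 3.58 on the log2 scale with JQ1 (SE 0.28, adjusted p = 1e-08, limma) and by 2.70 with I-BET 762 (SE 0.30, adjusted p = 1.11e-06, limma).

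SMTN encodes smoothelin, a cytoskeletal protein of contractile smooth muscle (ENSG00000183963.19, chr22:31064105-31104757, plus strand). Its normalized counts were 2573, 2132 and 2267 in the DMSO control, 2684, 2343, 2666 and 2885 with JQ1, and 2568, 2664 and 2739.6 with I-BET 762. The groups overlapped. The log2 difference from the DMSO control was 0.19 with JQ1 (SE 0.07, adjusted p = 0.0276, limma) and 0.20 with I-BET 762 (SE 0.08, adjusted p = 0.0344, limma), both under the 1.5-fold threshold. After rescaling the libraries to equal totals these differences were 0.0016 and 0.10. That rescaling moved the median of all tested genes by -0.18 with JQ1 and -0.10 with I-BET 762, and the 7 and 6 genes of the list stayed called lower under it.

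DES encodes desmin, the muscle intermediate filament protein (ENSG00000175084.13, chr2:219418377-219426735, plus strand). Its normalized counts were 186.9, 187.7 and 186.6 in the DMSO control, 8.79, 2.18, 6.0 and 14.2 with JQ1 and 21.6, 20.1 and 18.7 with I-BET 762. The JQ1 values rest on 8, 2, 6 and 14 reads, and replicate 18 lies under the limit of a count of 0. The groups did not overlap, and the DMSO libraries lay close together, with an SD of 0.57. DES had the largest fall of the list with JQ1, a log2 fold change of -4.63 (SE 0.38, adjusted p = 1.83e-08, limma), and it fell by 3.16 with I-BET 762 (SE 0.40, adjusted p = 5.78e-06, limma). These fold changes are on the log2(count + 1) scale, and 4.17% and 10.8% of the DMSO mean normalized count remained.

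**Figure D2:**
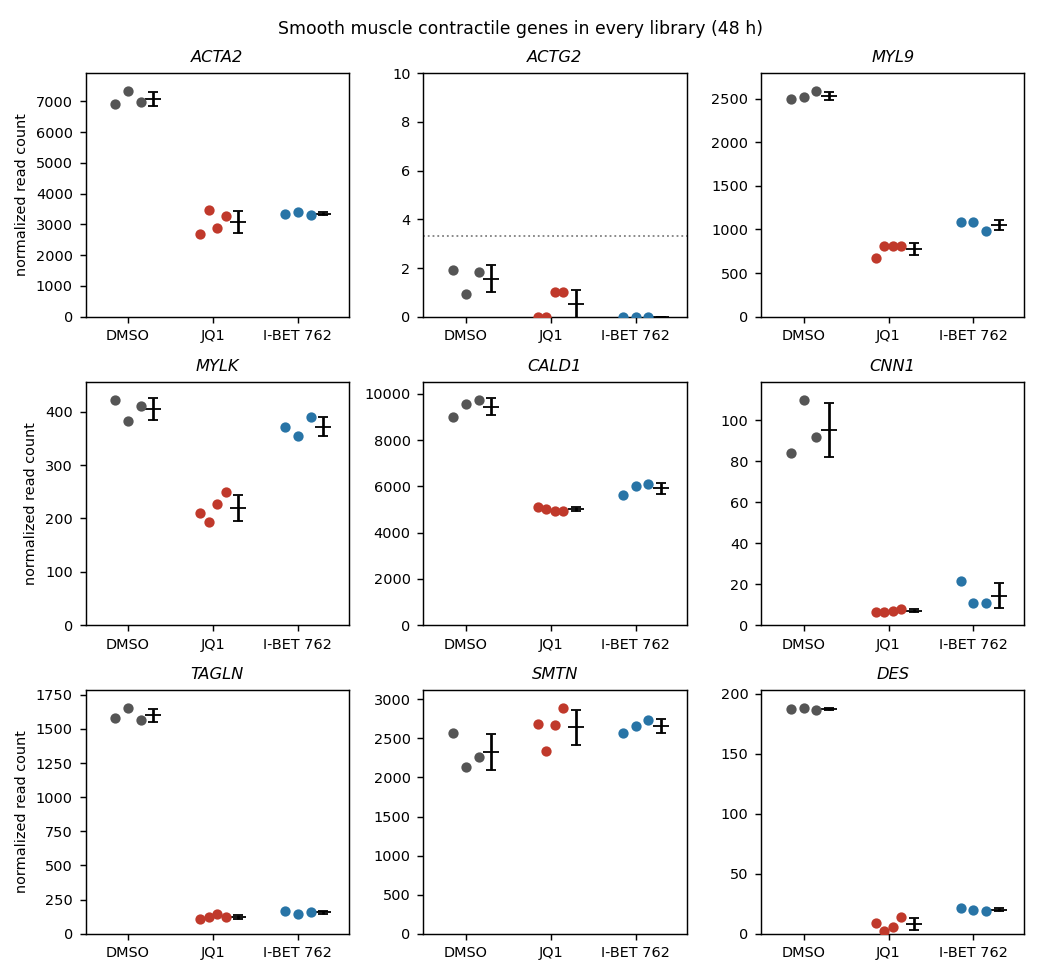
Normalized read counts of the 9 contractile genes in each library, by group, with each point a library and the bar beside it the mean ± SD (DMSO n = 3, JQ1 n = 4, I-BET 762 n = 3). The dotted line in the ACTG2 panel is the highest limit of a count of 0, at 3.30. Treated libraries lie below all DMSO libraries for ACTA2, TAGLN, CNN1, DES, CALD1 and MYL9, SMTN overlaps between groups, and MYLK is lower with JQ1. The share of all tested genes that separate in this way is not given.

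The inhibitors were compared directly at the same dose and time, a single pair of compounds, with adjustment over all tested genes. JQ1 has a thiophene ring fused to its triazolodiazepine core where I-BET 762 has a benzene ring. In this comparison 3 of the 8 tested genes were called lower with JQ1 than with I-BET 762 and 0 higher, and over all tested genes 3.59% were lower and 1.73% higher. Among the 3, DES and CNN1 did not meet the expression minimum in the JQ1 libraries alone and were tested through the other groups. MYLK met it in each group. At an unadjusted p under 0.05 by limma, 6 members were lower and 0 higher, and limma-voom on the recovered reads called 2 lower and 0 higher. The shares of all tested genes hold for limma calls at the main thresholds. For counts at an unadjusted p or by limma-voom, here and below, no such share is given. DES differed by -1.48 on the log2 scale (SE 0.38, adjusted p = 0.00936, limma), CNN1 by -0.88 (SE 0.28, adjusted p = 0.0283, limma) and MYLK by -0.76 (SE 0.09, adjusted p = 3.71e-05, limma). The call for CNN1 rested on I-BET 762 replicate 21, without which the difference was -0.57 (adjusted p = 0.173, limma), and over 20 alternatives its adjusted p ranged from 0.0169 to 0.173. For DES the difference ranged from -1.81 to -1.06 over 20 alternatives, and its adjusted p from 0.00121 to 0.041.

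Smaller differences between the compounds did not reach 1.5-fold. MYL9 was lower with JQ1 by a log2 difference of -0.44 (adjusted p = 0.000306, limma), TAGLN by -0.32 (95% interval -0.53 to -0.11, adjusted p = 0.0253, limma) and CALD1 by -0.24 (adjusted p = 0.00118, limma). For ACTA2 the difference was -0.13 (95% interval -0.28 to 0.02, adjusted p = 0.185, limma), and for SMTN it was -0.01 (95% interval -0.16 to 0.14, adjusted p = 0.93, limma). The intervals leave a difference of up to 0.28 for ACTA2 and 0.16 for SMTN on the log2 scale. The median over the 8 genes was -0.38, and over all tested genes -0.00012.

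**Figure D3:**
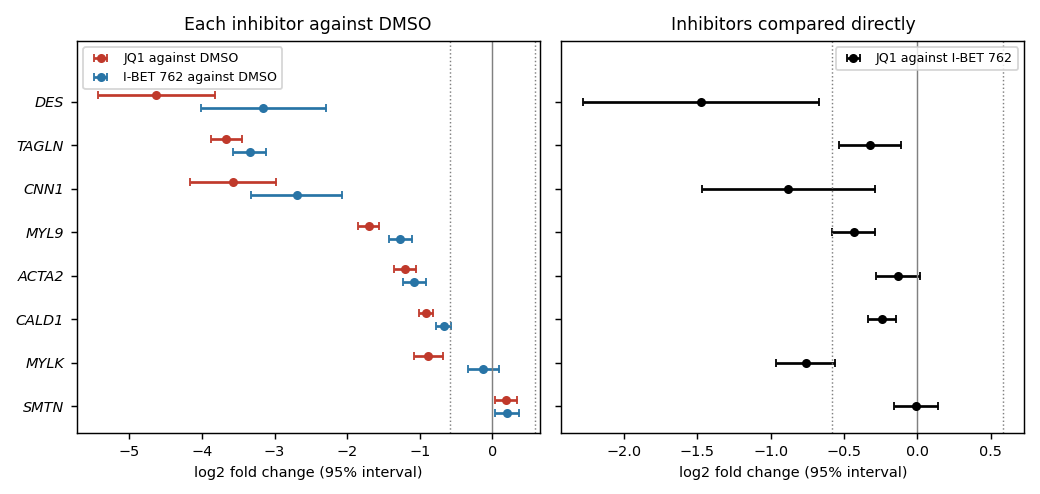
Log2 fold changes of the 8 tested contractile genes with 95% intervals from limma, against the DMSO control on the left and JQ1 against I-BET 762 on the right. Dotted lines mark a 1.5-fold change. All genes but SMTN lie left of 0 with JQ1, and in the direct comparison DES, CNN1 and MYLK lie furthest to the left.

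To set genes beside each other, counts were divided by the length of the main transcript in kb. In the DMSO control the order of these levels was ACTA2 (5242 ± 167 per kb, SD, n = 3), CALD1 (1884 ± 75), MYL9 (909 ± 16.4), SMTN (705 ± 68.6), TAGLN (422 ± 12.2), DES (83.4 ± 0.25), CNN1 (63.6 ± 8.82), MYLK (40.1 ± 2.07) and ACTG2 (1.04 ± 0.37). No neighbours in this order overlapped within 1 SD. With the length of all exons instead, TAGLN came before SMTN, at 244 ± 7.02 and 227.8 ± 22.2 per kb, which do overlap within 1 SD. On that length CALD1 (605 ± 25.2) and ACTA2 (595 ± 10.1) also changed places with I-BET 762, and they overlap. With JQ1 the level of SMTN was 802 ± 68.0 per kb (n = 4), above MYL9 at 279 ± 24.1, and DES and CNN1 came below MYLK at 3.47 ± 2.26 and 4.71 ± 0.49, which overlap. With I-BET 762 the order by main transcript was the same as with JQ1, with CNN1 at 9.67 ± 4.13 and DES at 8.98 ± 0.66 per kb, again overlapping. TAGLN at 41.4 ± 3.09 and MYLK at 36.7 ± 1.78 per kb also overlapped within 1 SD with I-BET 762.

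The muscle isoforms were minor members of their families in these cells, and their shares were smaller after treatment. Among ACTA2, ACTG2, ACTB and ACTG1, ACTA2 made up 4.99% ± 0.13 of the per-kb level in the DMSO control (SD, n = 3), 1.44% ± 0.17 with JQ1 and 1.86% ± 0.02 with I-BET 762, the rest being almost wholly the cytoplasmic actins. The normalized count of ACTB rose with JQ1 (log2 fold change 0.75, SE 0.06, adjusted p = 1.9e-08, limma) but at equal totals its value was 0.56, no longer past 1.5-fold, and with I-BET 762 the log2 difference was 0.42. For ACTG1 the differences were 0.52 and 0.36. MYL9 made up 3.61% ± 0.17 of its family with MYL12A and MYL12B in the DMSO control, 1.05% ± 0.11 with JQ1 and 1.63% ± 0.06 with I-BET 762. CNN1 made up 0.67% ± 0.08 of the calponins, 0.046% ± 0.0065 and 0.097% ± 0.039. TAGLN made up 7.41% ± 0.26 of the transgelins, 0.953% ± 0.10 and 1.04% ± 0.08, the rest being mostly TAGLN2. DES stood at 0.156% ± 0.0063 of the summed level of DES and VIM, the mesenchymal filament protein, and at 0.0048% ± 0.0031 and 0.015% ± 0.0011 after treatment. With the length of all exons, ACTA2 made up 2.77%, 0.79% and 1.02% of the actins in the same order of groups. These shares are descriptions and were not tested.

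**Figure D4:**
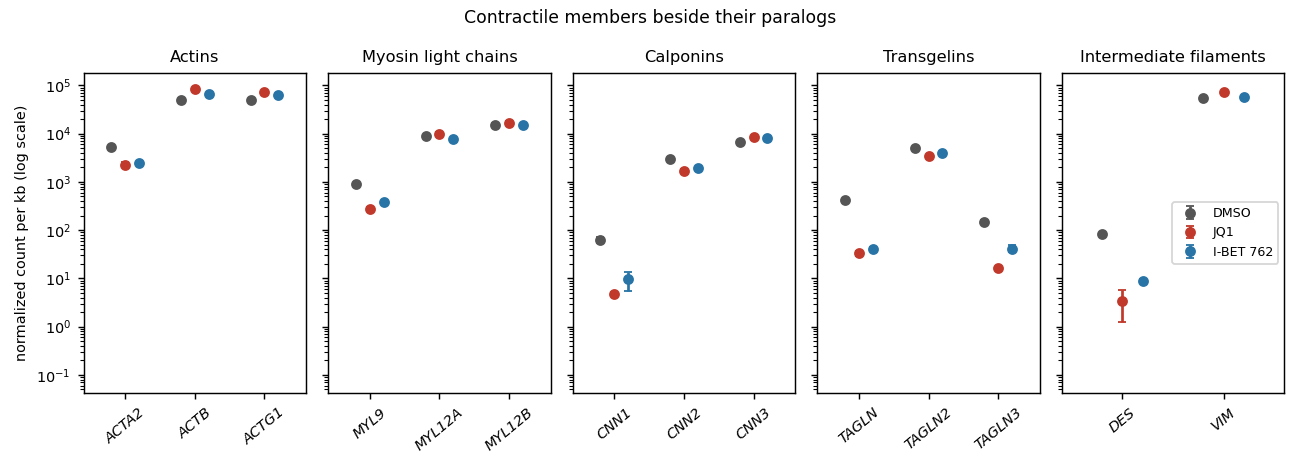
Normalized count per kb of main transcript for contractile genes and their paralogs, on a log axis, as group means with SD bars (DMSO n = 3, JQ1 n = 4, I-BET 762 n = 3). The muscle gene, at the left of each panel, lies below its widely expressed paralogs, except that TAGLN lies above TAGLN3 in the DMSO control and with JQ1.

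Genes that work beside the list were called in both directions. Of 36 cytoskeletal partners, 35 were tested, and 9 were called lower and 7 higher with JQ1, beside 22.8% and 13.3% of all tested genes. With I-BET 762, 7 were lower and 6 higher, beside 17.9% and 8.96%. The shares called lower lie near those of all genes. Their median log2 fold change was -0.0041 and -0.058. LMOD1, leiomodin of smooth muscle, which nucleates actin filaments, fell from 160.0 ± 8.62 (SD, n = 3) to 36.5 ± 6.15 with JQ1 (n = 4) and 49.4 ± 13.6 with I-BET 762 (n = 3), log2 fold changes of -2.12 and -1.71. TAGLN3, a neuronal transgelin, fell by 3.13 and 1.85 on the log2 scale and was lower with JQ1 than with I-BET 762 by a log2 difference of -1.28 (SE 0.17, adjusted p = 6.97e-05, limma). SYNPO2, an actin-bundling protein of the Z-disc and of smooth muscle, had log2 differences of 1.66 and 1.55, but it met the test minimum through treated libraries alone. Its DMSO libraries had 2.91 to 5.46 normalized counts, on 3 to 6 reads, around the limit of a count of 0. PDLIM3 and PDLIM5, which bind alpha-actinin, rose with both compounds. They were higher with JQ1 than with I-BET 762 by 0.82 (adjusted p = 0.0282, limma) and 0.61 (adjusted p = 0.000355, limma), calls that were both lost at equal totals (0.73 and 0.52). Some partners called higher, PDLIM3 among them at 9.69 to 22.8 normalized counts, did not meet the test minimum in the DMSO libraries alone.

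Of 31 regulators of contraction, 22 were tested, with 6 lower and 5 higher with JQ1, beside 22.8% and 13.3% of all tested genes, and 4 lower and 3 higher with I-BET 762, beside 17.9% and 8.96%. The shares called lower are again near those of all genes. In the direct comparison of the inhibitors 0 were called in either direction by limma or limma-voom, and at an unadjusted p under 0.05 4 were lower and 4 higher. PPP1R14A (CPI-17), an inhibitor of myosin phosphatase that keeps the light chain phosphorylated, fell from 229 ± 3.40 (SD, n = 3) to 62.8 ± 7.95 with JQ1 (n = 4) and 75.3 ± 7.90 with I-BET 762 (n = 3). PRKG1, the cGMP-dependent kinase of smooth muscle relaxation, had 22.2 ± 4.31 normalized counts in the DMSO control (SD, n = 3) and log2 differences of -1.93 and -2.54. It met the test minimum through the DMSO libraries alone, with 3 to 7 reads in the JQ1 libraries and 2 to 6 with I-BET 762, partly under the limit of a count of 0. ITPR1, a calcium release channel of the endoplasmic reticulum, rose by 1.58 and 1.12.

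Of 19 transcription factors of the smooth muscle programme, 15 were tested, with 4 lower and 0 higher with JQ1, beside 22.8% and 13.3% of all tested genes, and 2 lower and 0 higher with I-BET 762, beside 17.9% and 8.96%. At an unadjusted p under 0.05 by limma, 3 and 2 of them were higher, and limma-voom called 0. SRF had 2546 ± 43.2 normalized counts in the DMSO control (SD, n = 3), 2455 ± 188 with JQ1 and 2297 ± 127 with I-BET 762, log2 differences of -0.06 (adjusted p = 0.417, limma) and -0.15 (adjusted p = 0.0536, limma). MYOCD, the gene of myocardin, had 0 or 1 read in every library. MRTFB fell by 0.75 with JQ1 (SE 0.06, adjusted p = 1.02e-08, limma) and differed by -0.25 with I-BET 762, and MRTFA differed by 0.51 and 0.46, under the 1.5-fold threshold. TEAD3, a factor that binds MCAT elements, fell by 1.15 and 0.74, and NKX3-2, a homeobox factor, by 0.86 and 0.78. KLF4, a repressor of smooth muscle genes, was called with neither compound against the DMSO control, with log2 differences of 0.20 and -0.51, and was higher with JQ1 than with I-BET 762 by 0.70 (SE 0.13, adjusted p = 0.00089, limma).

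**Figure D5:**
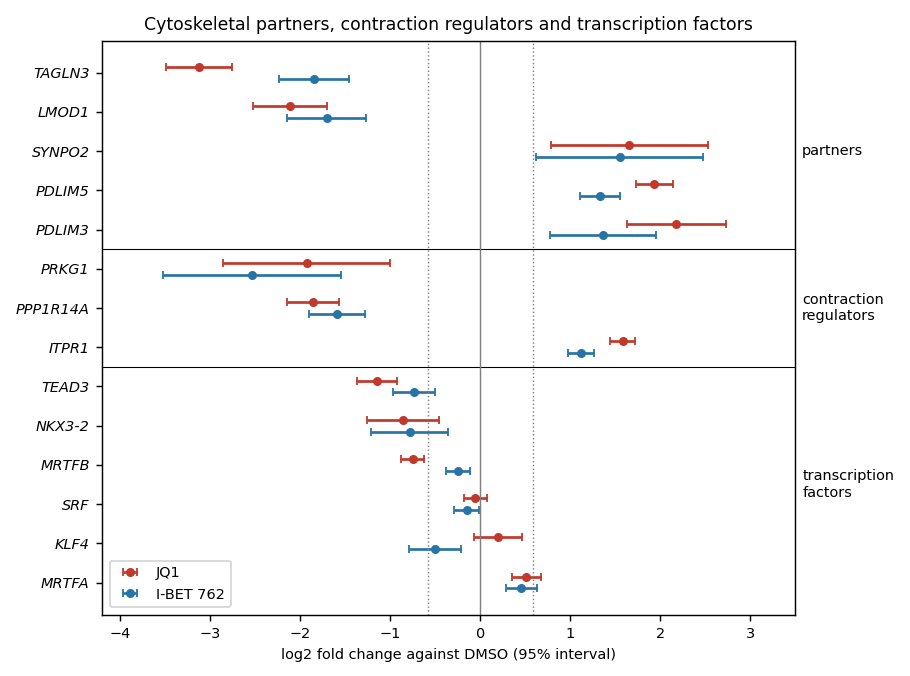
Log2 fold changes against the DMSO control, with 95% intervals from limma, for the named partner genes, contraction regulators and transcription factors. Dotted lines mark a 1.5-fold change. SYNPO2, PDLIM3, PDLIM5 and ITPR1 lie to the right of 0 and LMOD1, TAGLN3, PRKG1 and PPP1R14A to the left with both compounds, while SRF lies near 0.

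Markers of other cell types were read in the same libraries. Of the smooth muscle list itself, 8 of 10 genes passed the minimum, with ACTG2 near 0. The uterine hormone receptor genes ESR1 and PGR had at most 4 reads in any library, and OXTR, the oxytocin receptor, had 67.8 ± 6.29 normalized counts in the DMSO control (SD, n = 3), 41.2 ± 9.27 with JQ1 and 47.8 ± 2.56 with I-BET 762. Of 10 skeletal muscle genes, 1 was tested, the embryonic myosin MYH3, and it was not called (log2 difference -0.26 and -0.40). MYOD1, which was not tested, had 10 to 28 reads in the DMSO libraries, 1 to 6 with JQ1 and 3 to 9 with I-BET 762. MYOG had at most 1 read. The list summed to 83.2 to 94.9 normalized counts in the DMSO control, 53.0 to 101 with JQ1 and 48.2 to 78.8 with I-BET 762. Of 7 cardiac genes, 1 was tested, TNNI3, which fell by 1.10 and 1.06 on the log2 scale, and the list summed to 54.2 to 82.3, 25.4 to 39.6 and 28.5 to 35.4. The summed normalized count of the epithelial list, 5 of 6 tested, was 1231 to 1289.7 in the DMSO control, 517 to 612 with JQ1 and 507 to 547 with I-BET 762. Beside 22.8% of all tested genes with JQ1 and 17.9% with I-BET 762, 4 genes of this list were called lower with each compound. CLDN4, called with I-BET 762, did not meet the test minimum in the treated libraries alone and had 3 to 10 reads with I-BET 762. KRT19 led them (log2 fold change -1.60 and -1.95), and CDH1, a defining epithelial gene, had at most 15 reads in any library. The fibroblast and mesenchymal list, 7 of 9 tested, summed to 156370 to 167506, 162290 to 174594 and 142136 to 146440. Of its genes, 5 and 4 were called lower, beside the same 22.8% and 17.9% of all tested genes. COL3A1 (log2 fold change -3.45 and -2.34) and COL1A1 (-3.44 and -2.18) were among those called. DCN and LUM, defining fibroblast genes, had at most 4 reads. The leukocyte list summed to at most 4.01 and the endothelial list to at most 7.40 normalized counts. VIM, on the fibroblast and mesenchymal list, differed by 0.44 and 0.12, under the 1.5-fold threshold, and the sum of that list with JQ1 overlapped that of the DMSO control. VIM held most of that sum, at a mean of 114903 normalized counts in the DMSO control and 156300 with JQ1. COL3A1 went from 28783 to 2645, so the overlap of the sums does not show that the listed genes held steady. Some genes of the epithelial, cardiac and fibroblast lists were thus lower in the same libraries as the contractile genes, and their part in the result was not tested.

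The genes most like DES, the member with the largest fall, over the 10 libraries were TNFRSF18, PLPP7 and ARHGEF16, with a root mean square difference of centred log2 values of 0.453, 0.455 and 0.465. PLPP7 had mean normalized counts of 195 in the DMSO control, 11.9 with JQ1 and 22.1 with I-BET 762, beside 187, 7.79 and 20.1 for DES. The genes most like SMTN, the member with the highest log2 fold change with JQ1, were CLSTN1, TBC1D16 and DIP2A, at 0.0395, 0.0417 and 0.0419. The libraries share depth and treatment, and this likeness is a description.

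Some contractile genes overlap other genes, and the sources used here do not state whether counting used strand. Of the exon bases of TAGLN, 34.1% overlap PCSK7 on the opposite strand, whose level differed by 0.20 with JQ1 and 0.08 with I-BET 762 on the log2 scale, and 38.1% overlap an unnamed same-strand gene, so the TAGLN counts are uncertain to that extent. ACTA2 shares 29.1% of its exon bases with ACTA2-AS1 on the opposite strand, which had 111 ± 16.8 normalized counts in the DMSO control (SD, n = 3) beside 7071 for ACTA2, and 6.88% with FAS. MYLK shares 1.94% with MYLK-AS1, which fell by 1.38 and 1.03. Exact stretches of 75 bases in transcripts of other genes made up 0% for CNN1, ACTG2, DES, CALD1 and MYL9 and at most 0.184% for SMTN and MYLK. For ACTA2 and TAGLN they made up 5.67% and 35.6%, all of it in the overlapping same-strand genes.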

How the data were processed

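The labelled treatment set the group of each RNA-seq library of SK-UT-1 cells. As the methods of the study and the submitters' processing notes give it, the authors checked reads with FastQC 0.73, trimmed them with Trimmomatic, aligned them to hg38 with HISAT2 2.2.1, counted them with featureCounts 2.0.3 on Gencode genes, normalized with DESeq2 and left out outlier samples. The values, as deposited by the authors, are log2 of the normalized count plus 1, and they run from 0 to 20.48. The strand setting of the counting is not given in the sources used here. With a tolerance of 0.1 read, 99.77% to 99.80% of the values of a library were whole multiples of 1 step, which gave the reads behind each value. All columns were matched to a sample, and 0 library pairs were identical.

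With limma 3.58.1 (R 4.3.3), the log2 values of 10 libraries were put in 1 linear model with an intensity trend and Benjamini-Hochberg adjustment over 14839 genes with at least 10 normalized counts in at least 3 libraries. Called means an adjusted p under 0.05 and a fold change over 1.5 (0.585 on the log2 scale). Tables were made with Python 3.11.15, pandas 2.3.3 and numpy 2.4.6, and the fit was tested on simulated data. Promoters come from RefSeq on GRCh38.p14, and gene positions, transcript lengths and overlaps from GENCODE V44. A planned comparison of protein sequences was not run.

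The members and lists were chosen with earlier results of these data known. Named were all members, their paralogs, SRF, MYOCD, MRTFA and MRTFB, the listed genes called between the inhibitors, the 2 largest rises and 2 largest falls per list among genes called with both inhibitors, and the 3 genes nearest in pattern to the members with the largest rise and fall with JQ1. Some genes that this rule names are not reported here one by one. The marker genes named, the genes overlapping a member and the wider CArG definition were chosen after values were seen.

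Alternatives were pseudocounts of 0.5 and 5, all genes above 0, a mean count of at least 100, equal totals, equal upper quartiles, no intensity trend, a model of just the 2 groups in question, a fold over 2 or none required, limma-voom on recovered reads, and leaving out each library.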

Additional observations from a re-analysis of the deposited data

Results flagged for a closer look

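MYL9 in JQ1 replicate 17 had a normalized count of 676.9, below the 807 to 813 of the other 3 JQ1 libraries. The gap to the nearest library was 0.955 of the range of the group, above the critical value for 4 samples. Groups of 3 were not examined, so only the JQ1 group of each of the 8 tested genes was, and chance flags about 1 in 20 groups. Without replicate 17 the log2 fold change of MYL9 with JQ1 was -1.64 (adjusted p = 4.86e-12, limma).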

How the results depend on the processing

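No paired analysis was possible because the replicate numbers, 13 to 24, all differ between groups. Of 498 values of single contractile genes under an alternative, 482 kept their direction and their side of the threshold. The counts of contractile genes called lower with JQ1 and with I-BET 762 stayed within 1.5 times under every alternative run. They were smaller under some: at a fold over 2, CALD1 was lost with both inhibitors and MYLK with JQ1. A mean count of at least 100 removed CNN1 and DES from both counts. In the direct comparison, the count of 3 became 6 with no fold threshold, 1 at a fold over 2, and 1 with a mean count of at least 100, a filter that removes CNN1 and DES. CNN1 was not called there with all genes above 0 (adjusted p = 0.0687), with only the compared groups (0.0907), with limma-voom (0.0797) or without I-BET 762 replicate 21 (0.173), and the cause was not tested. With 1 library left out at a time, the difference of SMTN between the inhibitors ran from -0.054 (without JQ1 replicate 20) to 0.046 (without JQ1 replicate 18) and also changed sign without I-BET 762 replicate 23 (0.012), and at equal totals it was -0.10, none of them past the threshold. With no fold threshold, 1 contractile gene, SMTN, was called higher with each inhibitor. That setting gave 16 partners lower and 14 higher with JQ1, 16 and 11 with I-BET 762, and 8 and 9 between the inhibitors. Contraction regulators called higher became 13 with JQ1, those with I-BET 762 became 7 lower and 12 higher, and those between the inhibitors 2 and 4. Transcription factors became 3 higher with JQ1, 7 lower and 2 higher with I-BET 762, and 2 lower between the inhibitors. The share of all tested genes called with no fold threshold is not given, so these counts have no background and say nothing particular about the lists. At equal totals, 0 partners were higher with JQ1 than with I-BET 762, and transcription factors lower became 5 with I-BET 762 and 1 between the inhibitors. Depth limits DES and CNN1 in the JQ1 libraries, at 2 to 14 and 6 to 8 reads, and ACTG2 in all.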
